A study of Homo sapiens with 12 samples.

Results

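TIP60 siRNA (siTIP60) was compared with control siRNA (siControl) in MCF10A cells that stably expressed an siRNA-resistant wild-type TIP60 (WT-TIP60). These 4 libraries, replicates 1 and 2 of each siRNA, were taken by their labels out of 12 in the series and paired by replicate number. The measurements were inclusion levels of cassette exons from bulk RNA-seq. Of 8712 events listed in any library, 3350 in 2300 genes were tested, namely those where every one of the 4 libraries had 10 or more isoform-specific reads, which fit only the form with the exon or only the form without it.

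MCF10A is an immortalised, non-tumorigenic line of human breast epithelium. WT-TIP60 cells carried the stable resistant copy in both siRNA groups and were harvested 72 h after transfection. The other 8 libraries came from MCF10A cells with an empty vector (MSCV) or with an siRNA-resistant, catalytically dead TIP60 (KD-TIP60), each with its own siTIP60 and siControl libraries in 2 replicates. The labels name neither the number of clones in a line nor separate cultures, so that p-values measure the spread between these libraries, which may be technical. The resistant copy stayed present under both siRNAs, so the comparison asks which exons and transcripts still responded to siTIP60 in its presence.

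TIP60, encoded by KAT5, is a lysine acetyltransferase and the catalytic subunit of the NuA4 chromatin complex, known for acetylating histones and DNA damage kinases. A cassette exon is either spliced into the mature transcript or skipped together with its flanking introns, and the inclusion level is the share of an event's transcripts, from 0 to 1, that carry it. Epithelial cells use characteristic forms of many adhesion and cytoskeletal genes, set by splicing regulators such as the ESRP proteins.

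The 6 coding exons below had the largest differences in inclusion among the 24 exons named below, and are shown so that the skipped or included segment can be read. Each line gives the cassette exon in capitals between 12 bases of the exon before it and 12 bases of the exon after it, 5′ to 3′, from GENCODE release 29 transcripts with hg38 positions of the cassette exon.
ADD3 (chr10:110132305-110132400, plus strand): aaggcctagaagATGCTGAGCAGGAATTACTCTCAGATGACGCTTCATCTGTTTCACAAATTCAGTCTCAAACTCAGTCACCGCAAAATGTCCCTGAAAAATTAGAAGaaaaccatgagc
ARHGAP17 (chr16:24939364-24939597, minus strand): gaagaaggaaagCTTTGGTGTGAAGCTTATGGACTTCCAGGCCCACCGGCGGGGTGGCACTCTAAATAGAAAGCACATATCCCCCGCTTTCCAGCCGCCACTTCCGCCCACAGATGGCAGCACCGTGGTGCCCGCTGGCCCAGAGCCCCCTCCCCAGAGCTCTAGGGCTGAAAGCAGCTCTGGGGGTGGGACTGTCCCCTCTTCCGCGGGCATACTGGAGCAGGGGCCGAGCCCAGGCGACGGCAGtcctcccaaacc
HDAC7 (chr12:47795906-47796016, minus strand): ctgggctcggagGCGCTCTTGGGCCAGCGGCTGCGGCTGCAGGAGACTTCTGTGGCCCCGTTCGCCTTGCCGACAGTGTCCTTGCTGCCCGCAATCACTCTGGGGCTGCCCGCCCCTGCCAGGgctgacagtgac
SBF1 (chr22:50457034-50457111, minus strand): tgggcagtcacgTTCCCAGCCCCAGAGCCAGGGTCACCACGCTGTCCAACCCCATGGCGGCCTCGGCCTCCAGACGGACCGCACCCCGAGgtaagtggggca
MYL6 (chr12:56160626-56160670, plus strand): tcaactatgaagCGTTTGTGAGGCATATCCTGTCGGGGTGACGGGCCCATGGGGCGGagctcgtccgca
ABI1 (chr10:26755655-26755741, minus strand): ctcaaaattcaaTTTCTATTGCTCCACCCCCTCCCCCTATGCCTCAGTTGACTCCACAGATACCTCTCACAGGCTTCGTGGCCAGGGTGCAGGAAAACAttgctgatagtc
Their lengths were 96 nt in ADD3, 234 nt in ARHGAP17, 111 nt in HDAC7, 78 nt in SBF1, 45 nt in MYL6 and 87 nt in ABI1, all multiples of 3. The GC content was 40.6% in the ADD3 exon, whose inclusion was higher with siTIP60. It ran between 55.2% and 71.8% in the other 5, whose inclusion was lower. Other exons named below did not keep this order. Among lower ones GC content was 29.6% in MARK3 and 66.7% in EHMT2, and among higher ones 36% in SZRD1 and 57.9% in HNRNPD.

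The WT-TIP60 libraries held 2187228 and 1497480 reads that fitted an isoform with siTIP60, and 1983221 and 1505391 with siControl. Replicates 1 and 2 differed more than the siRNAs did in read make-up. Reads that fitted neither isoform made up 53.2% and 65.0% of event reads with siTIP60, and 52.9% and 64.6% with siControl. The median event had 27 and 16 isoform-specific reads with siTIP60, and 27 and 17 with siControl. The epithelial identity was checked by event reads scaled to library size (RPM, the isoform-fitting reads of an event for every 1000000 such reads of the library). Of 24 epithelial marker genes 7 had a listed event, with summed levels of 5740 and 4110 RPM with siTIP60 and 4880 and 4870 RPM with siControl. CDH1, the epithelial cadherin, and ESRP1, a regulator of epithelial splicing, were among them. The sums add all listed events of a gene, which can share exons. A gene can be expressed without a listed cassette exon event, so a marker without one says nothing about its level. No immune marker had a listed event. Of 19 mesenchymal markers 2 did, FN1 and DCN, with summed levels of 692.0 and 218.0 RPM with siTIP60 and 424.0 and 83.0 RPM with siControl, so that both pairs were higher with siTIP60. The part of these mesenchymal transcripts in the results below was not tested. In bulk samples, fewer cells of a type and less RNA per cell cannot be told apart.

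KAT5 itself had a single listed event, whose coding exon of 156 nt lies at chr11:65713348-65713503. The form with this exon had 2.74 and 1.34 RPM with siTIP60, against 11.6 and 5.31 RPM with siControl. In the first pair that was 6 against 23 reads, a ratio of 0.237 (exact 95% interval 0.0788 to 0.598). In the second pair it was 2 against 8 reads, a ratio of 0.251 with an interval of 0.0260 to 1.26. These intervals cover counting error only. Both pairs were lower, and in the second pair the interval of the ratio spans 1.

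The form of KAT5 without the exon was the abundant one in WT-TIP60 cells, at 1654 and 76.8 RPM with siTIP60 and 2291 and 93.0 RPM with siControl. Its ratio was 0.722 in the first pair (interval 0.691 to 0.755) and 0.826 in the second (0.640 to 1.06). In empty-vector cells the same form had 2.52 and 0 RPM with siTIP60 and 8.38 and 0.731 RPM with siControl, where 0 reads allow up to 2.27 RPM. In both siTIP60 libraries of WT-TIP60 cells it stayed far above the empty-vector level. Reads of the construct and of the endogenous gene were not separated. Replicates 1 and 2 differed in it by far more than the siRNA groups. The event had an inclusion level of 0 to 0.01 in the 4 WT-TIP60 libraries.

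**Figure D1:**
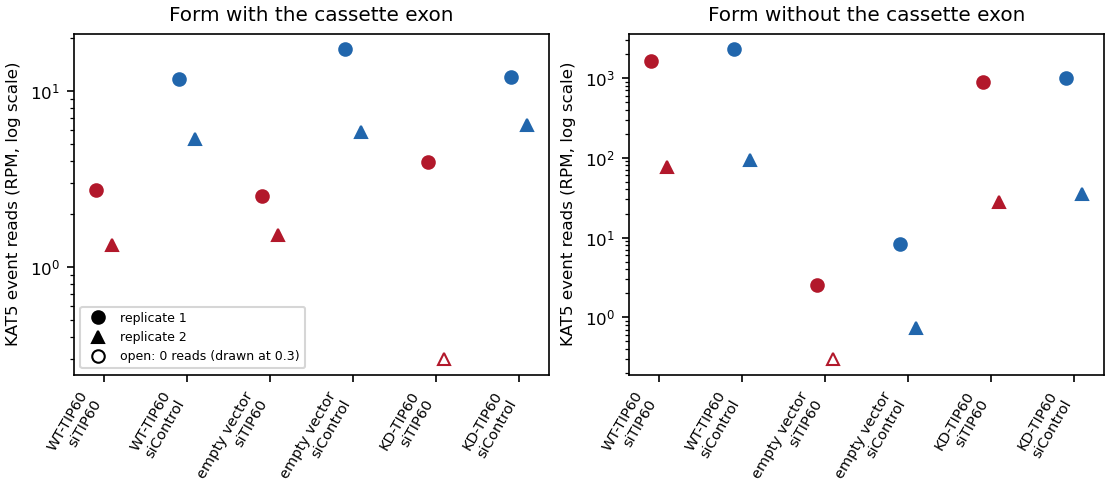
Reads of the KAT5 event in each library, in RPM on a log axis, for the form with the cassette exon (left) and without it (right); red marks siTIP60, blue siControl, circles replicate 1 and triangles replicate 2. In WT-TIP60 cells the form with the exon had 2.74 and 1.34 RPM with siTIP60 and 11.6 and 5.31 RPM with siControl. The form without it had 1654 and 76.8 RPM with siTIP60 and 2291 and 93.0 RPM with siControl.

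Inclusion fell at 4 exons with siTIP60 in WT-TIP60 cells and rose at none past the adjusted threshold. They lie in ARHGAP17 and SBF1, regulators of small GTPases and of phosphoinositide signalling, in HDAC7, a class IIa histone deacetylase, and in AKT2, a kinase of insulin signalling. Test values come from limma with the replicate number as a block, fitted to all 12 libraries and adjusted by the Benjamini-Hochberg method over the 3350 events, with a threshold of 0.05. The 4 exons are 0.119% of the events tested. At an unadjusted p under 0.05, 189 events were lower (5.64%) and 70 higher (2.09%), and the median difference over all tested events was −0.005.

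ARHGAP17, a GTPase-activating protein of epithelial junctions, had inclusion levels of 0.07 and 0.36 with siTIP60, against 0.61 and 0.87 with siControl. The siRNA groups did not overlap, although replicate 2 was higher than replicate 1 under both siRNAs. The difference was −0.525 (SE 0.0300, n = 2 libraries a group, limma adjusted p = 0.00514). Such an SE comes from the spread left by the fit and does not use the deposited intervals. For ARHGAP17 these were wide, 0.03 to 0.13 and 0.20 to 0.61 with siTIP60, and 0.41 to 0.82 and 0.65 to 0.98 with siControl. In a quasi-binomial model of the reads, which takes counting error as the smallest spread, no exon passed. SBF1, a myotubularin-related pseudophosphatase, had 0.12 and 0.34 with siTIP60, against 0.61 and 0.78 with siControl. Its difference was −0.465 (SE 0.0373, limma adjusted p = 0.0218). By these levels both exons sat in a minority of transcripts in each siTIP60 library and in a majority in each siControl library. Some deposited intervals reached across an even split. These were ARHGAP17 in the second siTIP60 and first siControl library, and SBF1 in the second siTIP60 library (0.20 to 0.52).

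HDAC7 had inclusion levels of 0.29 and 0.37 with siTIP60, against 0.78 and 0.91 with siControl. The difference was −0.515 (SE 0.0450, limma adjusted p = 0.0242), and the level in the second siTIP60 library rests on 12 isoform-specific reads. AKT2 had 0.80 and 0.81 with siTIP60, against 0.92 and 0.94 with siControl. This exon of 129 nt (chr19:40236257-40236385) was well covered, with 163 to 502 isoform-specific reads a library, and its levels were nearly equal within each siRNA group. Its difference was −0.125 (SE 0.0130, limma adjusted p = 0.0498). The deposited intervals of AKT2 overlapped in the first pair, at 0.72 to 0.88 with siTIP60 and 0.84 to 0.97 with siControl. No call passed in any fit with 1 library left out, where the adjusted p of ARHGAP17 ran from 0.0517 to 0.31 and its difference from −0.55 to −0.50. Without the replicate block no event passed.

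Next to these, 8 lower exons were named by the smallest p among exons whose siRNA groups did not overlap. Their adjusted p-values lay between 0.118 and 0.149, so none of the 8 passed. MYL6, an essential light chain of myosin II, had 0.33 and 0.30 with siTIP60, against 0.76 and 0.80 with siControl, with 379 to 973 isoform-specific reads in each library. ABI1, a subunit of the WAVE complex that starts actin branching, had 0.29 and 0.38 with siTIP60, against 0.73 and 0.72 with siControl. In both genes the siRNA groups were far apart and replicates were close. MARK3, a kinase that acts on microtubule-binding proteins, had 0.11 and 0.02 with siTIP60, against 0.26 and 0.31 with siControl, for an exon of 27 nt. EHMT2, a histone H3 lysine 9 methyltransferase, had 0.51 and 0.53 with siTIP60, against 0.73 and 0.76 with siControl. Its fit used 11 libraries, and copies of the event on alternate contigs hold nearly the same values, so that its reads may be shared among them. JADE2, a scaffold of an acetyltransferase complex, had 0.52 and 0.63 with siTIP60, against 0.67 and 0.77 with siControl. DST, a plakin that links filaments to adhesions, had 0.82 and 0.73 with siTIP60, against 0.97 and 0.93 with siControl. The other members of this set were VRK3 (0.70 and 0.67 with siTIP60, 0.84 and 0.85 with siControl) and ARHGAP8 (0.76 and 0.75 with siTIP60, 0.97 and 0.89 with siControl). VRK3 is a vaccinia-related kinase and ARHGAP8 a GTPase-activating protein whose exons are partly shared with a read-through gene.

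Among exons with higher inclusion none passed, and the 12 named had limma adjusted p-values between 0.135 and 0.33. ADD3, the gamma subunit of adducin in the membrane skeleton, had 0.64 and 0.79 with siTIP60, against 0.10 and 0.26 with siControl, with 14 to 44 isoform-specific reads a library. The difference was 0.535 (SE 0.0846, limma adjusted p = 0.149), in size the largest of the 24 named. ABCB8, a mitochondrial ABC transporter, had 0.93 and 0.97 with siTIP60, against 0.67 in both siControl libraries. PPP3CB, a catalytic subunit of calcineurin, had 0.85 and 0.79 with siTIP60, against 0.65 and 0.50 with siControl, at an exon of 30 nt. The 12 were named by smallest p among exons whose siRNA groups did not overlap, so their separation by siRNA follows from that rule. HNRNPD, a pre-mRNA and mRNA decay factor, had 0.95 and 0.89 with siTIP60, against 0.84 and 0.81 with siControl. SLK, a kinase of the microtubule and actin cytoskeleton, had 0.28 and 0.30 with siTIP60, against 0.06 and 0.16 with siControl. CPNE1, a calcium-dependent membrane-binding protein, had 0.24 and 0.27 with siTIP60, against 0.04 in both siControl libraries, at an exon in its 5′ UTR. MYNN, a zinc finger protein, had 0.68 and 0.61 with siTIP60, against 0.46 and 0.45 with siControl, also in the 5′ UTR. The fits of SLK and CPNE1 each used 11 libraries. The other 5 were in RNF14, CPPED1, SKA2, GPBP1 and SZRD1, with differences between 0.06 and 0.13.

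**Figure D2:**
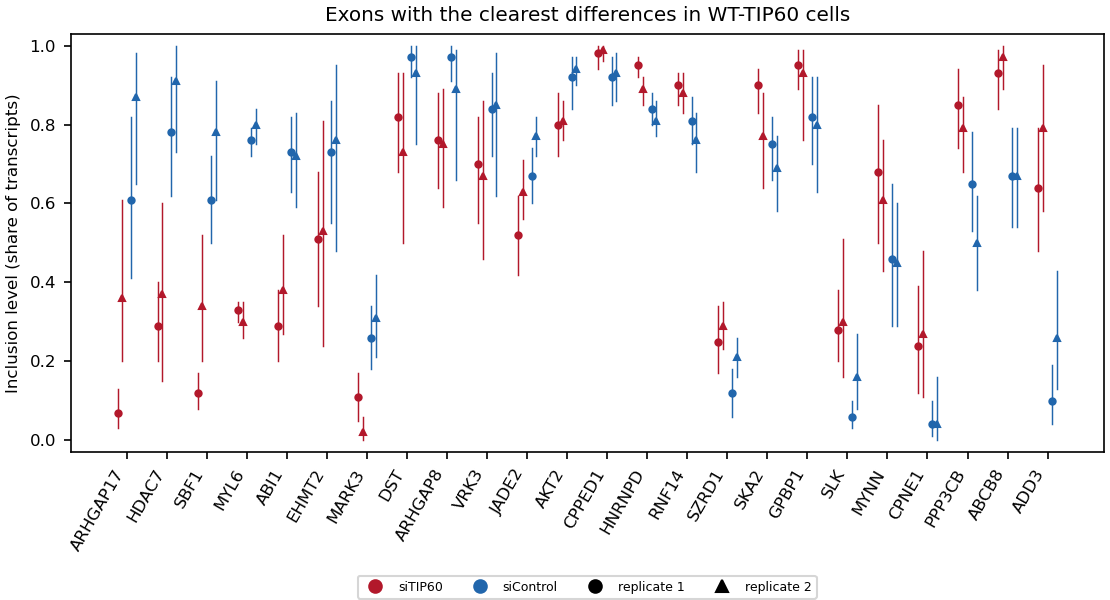
Inclusion level (share of transcripts, vertical axis) of the 24 named exons in the 4 WT-TIP60 libraries, ordered by difference; red marks siTIP60, blue siControl, circles replicate 1, triangles replicate 2, and bars the deposited interval, taken as 95%. At MYL6 the siTIP60 libraries sat at 0.33 and 0.30 and the siControl libraries at 0.76 and 0.80, whereas at ADD3 the siTIP60 libraries sat at 0.64 and 0.79 and the siControl libraries at 0.10 and 0.26.

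Exons that differed by at least 0.1 in the same direction in both pairs were mostly lower with siTIP60. They numbered 155 lower (4.63% of 3350 events) and 43 higher (1.28%), while 41 events differed by at least 0.1 in opposite directions in the pairs. The correlation of the pairs' differences over the 3350 events was 0.336, as a description across events that share libraries. With the stricter rule that the deposited intervals of both pairs did not overlap, 30 exons were lower (0.896%), 6 were higher (0.179%) and 0 went in opposite directions. These counts carry no test: the smallest exact p that 2 against 2 libraries can reach is 0.33.

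Several exons under the stricter rule were not among the 24 named, and those given here were picked after their values were seen. MPRIP, a scaffold of myosin phosphatase, had 0.34 and 0.23 with siTIP60, against 0.69 and 0.58 with siControl. PAK4, a kinase downstream of CDC42, had 0.55 and 0.45 with siTIP60, against 0.96 and 0.87 with siControl, at the shorter form of its exon (189 nt). MST1R, the receptor tyrosine kinase RON, had 0.38 and 0.28 with siTIP60, against 0.70 and 0.78 with siControl. In each of these 3 genes the siTIP60 libraries lay at or below 0.55 and the siControl libraries at or above 0.58. MTA1, a subunit of the NuRD deacetylase complex, had 0.36 and 0.40 with siTIP60, against 0.72 and 0.68 with siControl. ISOC2, an isochorismatase-domain protein, had 0.10 and 0.23 with siTIP60, against 0.63 and 0.77 with siControl. TRERF1, a transcriptional regulator, had 0.60 and 0.57 with siTIP60, against 0.90 and 0.95 with siControl. Their limma adjusted p-values, from 0.156 for MPRIP and MST1R to 0.413 for MTA1, did not pass. On the higher side, HNRNPA2B1, an hnRNP that carries a short exon near its start, had 0.16 and 0.41 with siTIP60, against 0.05 and 0.15 with siControl. CD46, a complement regulator, had 0.48 and 0.81 with siTIP60, against 0.20 and 0.31 with siControl, from a fit of 10 libraries.

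**Figure D3:**
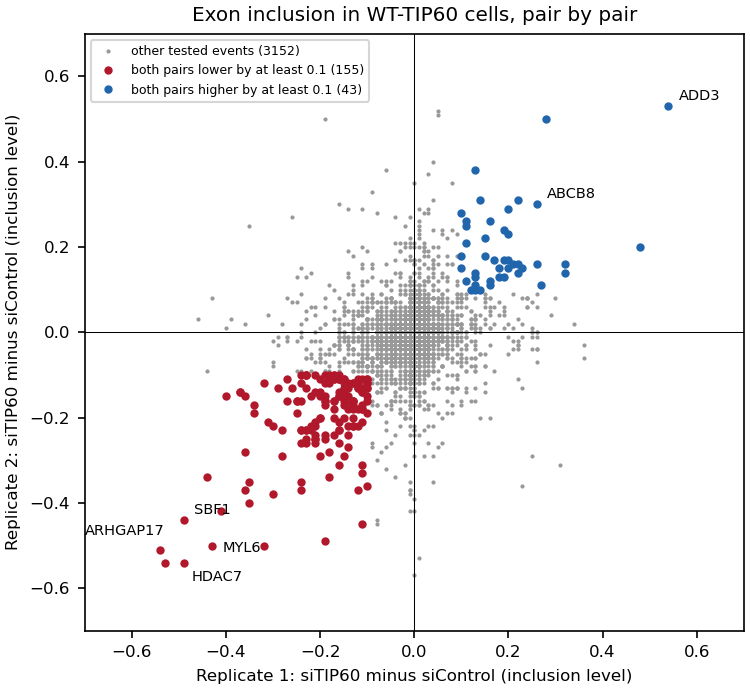
Difference in inclusion level (siTIP60 minus siControl) in replicate 1 (horizontal) against replicate 2 (vertical) for the 3350 tested events of WT-TIP60 cells. Red points mark 155 events lower by at least 0.1 in both pairs, blue points 43 events higher in both, and ARHGAP17, HDAC7, SBF1 and MYL6 lie farthest toward the lower left among the labelled exons.

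Exons lower in both pairs differed in sequence make-up from the events tested as a whole, described here on primary chromosomes and without a test. Their median GC content was 58.5% (139 exons), against 46.5% for the 38 exons higher in both pairs and 50.5% for the tested events. Median exon length was 142.0 nt for the lower exons and 73.5 nt for the higher ones, against 124.0 nt for the tested events. Exons of at most 50 nt made up 23.7% of the higher exons (9 of 38) and 3.6% of the lower ones (5 of 139), against 6.74% of the tested events. Those of PPP3CB and HNRNPA2B1 were among the higher ones, and those of MYL6 and MARK3 among the lower ones. The intron before the exon had a median of 1690 nt for the lower and 2180 nt for the higher exons, against 2190 nt for the tested events. The length was a multiple of 3 in 66.9% of the lower exons and 63.2% of the higher ones, against 56.9% of the tested events. An exon near 0 has little room to go lower and an exon near 1 little room to go higher, so the counts are also given by siControl level, which is itself part of the difference. Of 806 events with a mean siControl level over 0.2 and up to 0.8, 90 were lower and 33 higher in both pairs. Of 1889 events over 0.8, 64 were lower and 2 higher, and of 655 events up to 0.2, 1 was lower and 8 were higher.

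The gene lists were read against all tested genes, of which 7.13% had an event with lower inclusion at an unadjusted p under 0.05 and 2.78% an event with higher inclusion. These shares count genes, and a gene with more tested events has more chances to be counted. The actin and adhesion list held 54 events in 24 genes, against 3350 events in 2300 genes tested in all. Genes of actin and adhesion had 10 of 24 lower and 2 of 24 higher, and the list's median difference was −0.02, against −0.005 over all tested events. The 10 were ARHGAP17, MYL6, ABI1, ARHGAP8, DST, MPRIP, MYO18A, FLNA, ITGB4 and TPM3, and ADD3 was among the higher ones. MYO18A, an unconventional myosin, had 0.44 and 0.27 with siTIP60, against 0.80 and 0.64 with siControl, at an exon of 45 nt. It had 14 to 49 isoform-specific reads a library, and its fit did not hold all libraries of the other lines. FLNA, ITGB4 and TPM3 differed by less, by −0.05, −0.02 and −0.02. Only ARHGAP17 of this list passed the adjusted threshold, and the list was composed with earlier results of these data known.

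Kinases and signalling genes had 5 of 20 lower and 3 of 20 higher. The lower ones were AKT2, SBF1, VRK3, MST1R and MAP4K4, and the higher ones PPP3CB, SLK and MAPK9, the JNK2 kinase (0.08 and 0.22 with siTIP60, 0.02 and 0.08 with siControl). Chromatin enzymes had 4 of 15 lower, HDAC7, EHMT2, JADE2 and MTA1, and 1 higher, the demethylase KDM4B (0.86 and 0.81 with siTIP60, 0.73 and 0.43 with siControl). AKT2, SBF1 and HDAC7 passed the adjusted threshold and the other members did not. The epithelial-mesenchymal splicing list had 4 of 21 lower, ABI1, DST, MARK3 and the Notch regulator NUMB, and 2 higher, SLK among them, and shares members with the actin list. The direction of the list members was mixed, and its median difference was −0.0025.

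Splicing regulators had 5 of 23 genes lower and 2 higher, and none passed the adjusted threshold. The lower ones were HNRNPA1, HNRNPC, RBM4, SF1 and TRA2A. HNRNPA1, an hnRNP that represses exons, had 0.03 and 0.05 with siTIP60, against 0.13 and 0.17 with siControl. RBM4, an RNA-binding splicing factor, had 0.58 and 0.71 with siTIP60, against 0.74 and 0.82 with siControl. The higher ones were HNRNPD and HNRNPA2B1. The median difference of this list was 0.0.

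Apoptosis genes had 4 of 15 lower, BID, CASP1 and FAS among them, and 1 higher, PDCD10. Mitochondrial and transport genes had 1 of 13 lower, the pyrophosphatase PPA2 (0.85 and 0.72 with siTIP60, 0.99 and 0.96 with siControl), and 2 higher, ABCB8 and ATP5F1C. Cell cycle genes had 2 of 10 lower, CCND3 and ANAPC11, and 1 higher, SKA2. CCND3, a D-type cyclin, had 0.86 and 0.89 with siTIP60, against 0.95 and 0.96 with siControl. The p53 target list had 2 of 9 lower, FAS and TP53I3, whose oxidoreductase exon had 0.85 and 0.79 with siTIP60 and 0.95 and 0.92 with siControl. Lipid synthesis genes had 1 of 12 lower, CDIPT, and 1 higher, AGPAT4, and the interferon list had 1 of 6 lower, IRF3. DNA damage genes had 0 of 15 lower and 1 higher, UIMC1, a component of the BRCA1-A complex (0.71 and 0.63 with siTIP60, 0.54 and 0.46 with siControl). None of the 4 tested genes of the TIP60 complex and none of the 3 of RNA decay had an event at that p. In the TIP60 complex, the BRD8 exon was the one with the smallest p (0.61 and 0.77 with siTIP60, 0.77 and 0.87 with siControl) and its siRNA groups met at 0.77. Of the cell type markers, 1 of 7 epithelial genes was lower (ITGB4) and 1 of 2 mesenchymal genes higher (DCN, 0.95 and 0.91 with siTIP60, 0.90 and 0.86 with siControl). The fits of FAS and DCN each used 11 libraries.

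The siRNA effect in WT-TIP60 cells was set beside that in empty-vector and KD-TIP60 cells, each measured against its own siControl libraries. Exons in ARHGAP17, SBF1, AKT2, MYL6, ABI1 and ADD3 had the same sign in all 3 lines. The ARHGAP17 difference was −0.525 in WT-TIP60 cells, −0.44 in empty-vector cells and −0.52 in KD-TIP60 cells. For ADD3 it was 0.535 in WT-TIP60 cells, 0.46 in empty-vector cells and 0.605 in KD-TIP60 cells. The WT-TIP60 effect minus the empty-vector effect had 95% intervals of −0.186 to 0.0159 for ARHGAP17, −0.0644 to 0.0244 for AKT2 and −0.161 to 0.241 for MYL6. Of the 12 named lower exons, 10 had the same sign in empty-vector cells and 11 in KD-TIP60 cells, and the same counts held for the 12 named higher exons. The same-sign share over all tested events was not counted, so these counts have no base share beside them.

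A few exons differed more in WT-TIP60 cells than elsewhere, but no difference between lines passed. HDAC7, ARHGAP8, VRK3 and DST had been named by small p-values in WT-TIP60 cells, a choice that by itself favours larger differences there. HDAC7 had −0.515 in WT-TIP60 cells, −0.265 in empty-vector cells and −0.30 in KD-TIP60 cells. The interval of WT-TIP60 minus empty vector was −0.405 to −0.095 (limma unadjusted p = 0.00742, adjusted p = 1.0). ARHGAP8 had −0.175 in WT-TIP60 cells, 0.025 in empty-vector cells and 0.03 in KD-TIP60 cells. VRK3 had −0.16 in WT-TIP60 cells, 0.005 in empty-vector cells and −0.01 in KD-TIP60 cells. DST had −0.175 in WT-TIP60 cells, −0.05 in empty-vector cells and −0.02 in KD-TIP60 cells. In the other direction, MARK3 had −0.22 in WT-TIP60 cells, against −0.365 in empty-vector cells and −0.42 in KD-TIP60 cells. The 5 events of smallest p also named ORMDL1, CPPED1 and AGPAT4 against empty vector, and NKIRAS2, HNRNPC and USP48 against KD-TIP60. Limma called 0 of 2933 differences from empty-vector cells (0%), with 111 at an unadjusted p under 0.05. It called 0 of 2870 differences from KD-TIP60 cells (0%), with 84 at that p. A p that misses the threshold does not show that the lines responded alike.

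Over exons measured in both lines, 139 were lower by at least 0.1 in both pairs of WT-TIP60 cells, and 54 of them were also lower in both pairs of empty-vector cells. These 54 were 38.8% of the WT-TIP60 set and 36.0% of the empty-vector set, while 5.11% of the 2933 events were lower by that rule in empty-vector cells. In KD-TIP60 cells 66 of 128 exons met the rule as well, which is 51.6% of the WT-TIP60 set and 41.8% of the KD-TIP60 set, against 5.51% of the 2870 events there. Of these lower WT-TIP60 exons, 1 was higher by the same rule in empty-vector cells and 1 in KD-TIP60 cells. Of 28 exons higher in both pairs of WT-TIP60 cells, 8 were also higher in empty-vector cells (28.6%, against 1.6% of the events there). In KD-TIP60 cells 9 of 29 were also higher (31.0%, against 1.53% of the events there). The replicate numbers mark sets of libraries shared by all lines, whose part in this overlap was not tested.

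**Figure D4:**
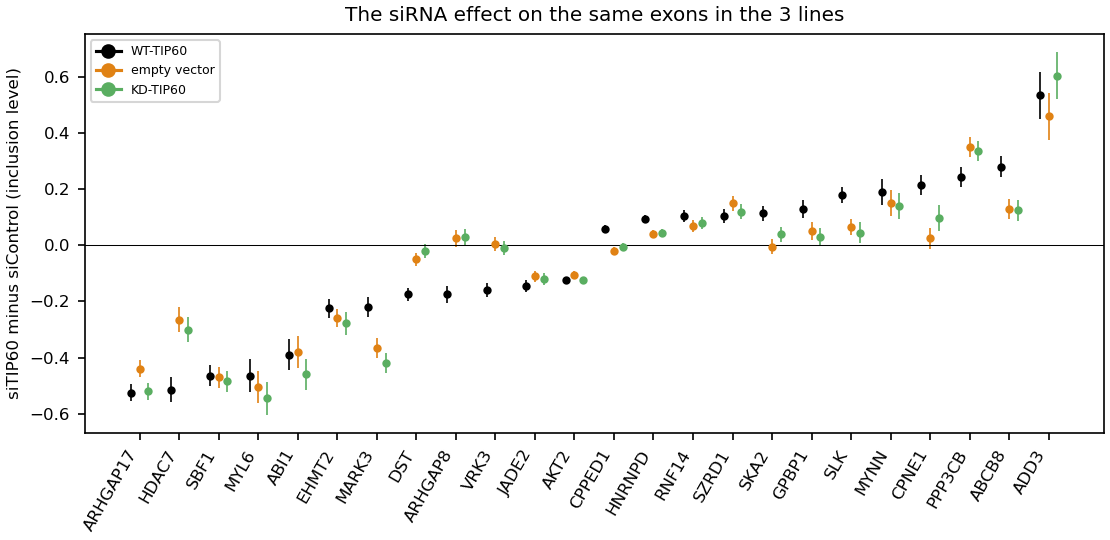
siRNA effect on inclusion (siTIP60 minus siControl, limma estimate with its SE as bars) for the 24 named exons in WT-TIP60 (black), empty-vector (orange) and KD-TIP60 (green) cells. ARHGAP17, SBF1, MYL6 and ADD3 had effects of at least 0.44 in size in each of the 3 lines, while HDAC7 stood at −0.515 in WT-TIP60 cells, −0.265 in empty-vector cells and −0.30 in KD-TIP60 cells.

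Event reads, a proxy of transcript level over the exons of an event and not a gene count, fell at 1 of 5823 events (0.0172%). The event is in CCNG1, which encodes cyclin G1, a p53-induced protein. It had 485.5 and 268.5 RPM with siTIP60, against 2042 and 1056 RPM with siControl, and the pairs' ratios were 0.238 and 0.254. On the scale log2(RPM + 0.5) the difference was −2.02 (SE 0.187, limma adjusted p = 0.00346). The other CCNG1 event in the list of members at an unadjusted p under 0.05 differed by −2.01 but did not pass (limma adjusted p = 0.155). CCNG1 differed by −2.14 in empty-vector cells and −2.16 in KD-TIP60 cells. With any 1 WT-TIP60 library left out the call was lost, with adjusted p-values from 0.0961 to 0.191 and differences from −2.10 to −1.94. Without the replicate block it was lost too.

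At an unadjusted p under 0.05, 314 events had fewer reads (5.39%) and 186 more (3.19%), and the median log2 difference over all 5823 was −0.0746. Lower but not past the threshold were ADGRG6, BDNF, COPS8, GLRB and ITGB1, each with a limma adjusted p of 0.112. BDNF, a neurotrophin, had 9.14 and 8.01 RPM with siTIP60, against 47.4 and 93.7 RPM with siControl. ADGRG6, an adhesion G protein-coupled receptor, had 318.2 and 201.0 RPM with siTIP60, against 850.6 and 506.8 RPM with siControl. ITGB1, the integrin beta 1 subunit, had 4071 and 2037 RPM with siTIP60, against 6610 and 3570 RPM with siControl. In all 3 the siTIP60 value was lower within each pair. Higher but not past the threshold were ABCC5, ABHD11, TREM1, WDYHV1, CD55 and AFAP1L1, with limma adjusted p-values from 0.112 to 0.198. ABCC5, a nucleotide exporter of the ABC family, had 141.3 and 134.2 RPM with siTIP60, against 56.5 and 46.5 RPM with siControl. CD55, a complement decay factor, had 877.4 and 487.5 RPM with siTIP60, against 367.1 and 248.4 RPM with siControl. ABHD11, a mitochondrial hydrolase, had 87.3 and 185.0 RPM with siTIP60, against 22.7 and 59.1 RPM with siControl.

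**Figure D5:**
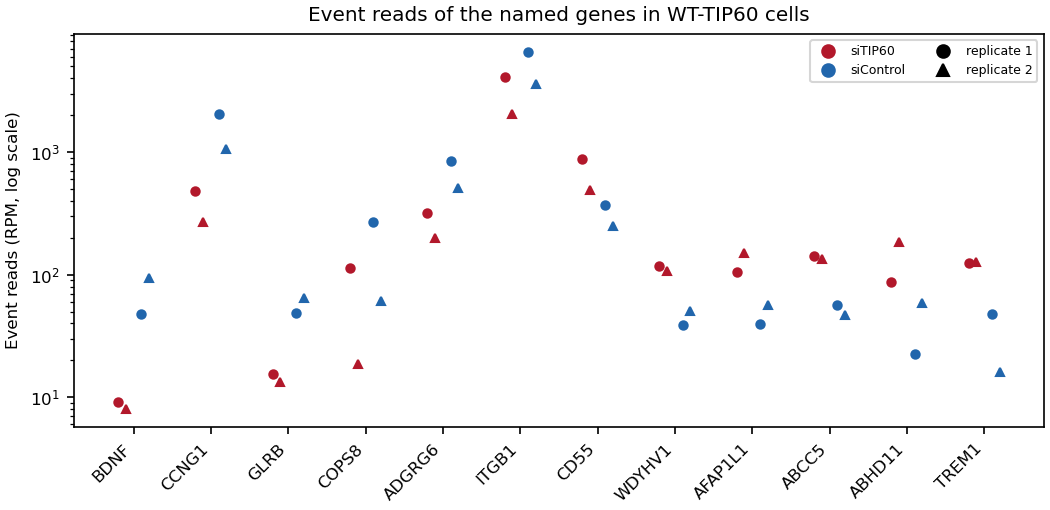
Event reads (RPM, log axis) of the 12 genes named by event reads in the 4 WT-TIP60 libraries, ordered by log2 difference; red marks siTIP60, blue siControl, circles replicate 1 and triangles replicate 2. CCNG1 had 485.5 and 268.5 RPM with siTIP60 and 2042 and 1056 RPM with siControl, and ABCC5 had 141.3 and 134.2 RPM with siTIP60 and 56.5 and 46.5 RPM with siControl.

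The lists were read against 3598 genes with listed reads, of which 6.73% had an event with fewer reads at an unadjusted p under 0.05 and 4.03% one with more. Here too a gene with more events has more chances to be counted. The epithelial-mesenchymal list held 82 events in 27 genes, against 5823 events in all. Of 13 p53 targets, 3 were lower, CCNG1, FAS and ZMAT3, and 2 higher, TP53I3 and TP53INP1. FAS, the death receptor, had 36.6 and 16.0 RPM with siTIP60, against 110.4 and 65.8 RPM with siControl. TP53I3, a p53-induced oxidoreductase, had 991.7 and 1336 RPM with siTIP60, against 415.0 and 625.8 RPM with siControl. TP53INP1, a p53-induced nuclear protein, had 217.2 and 217.0 RPM with siTIP60, against 100.8 and 89.7 RPM with siControl. The targets thus differed in both directions, and only CCNG1 passed the adjusted threshold. Their median log2 difference was −0.475. Actin and adhesion genes had 4 of 29 lower, DST, LIMCH1, SYNE2 and TPM1, and 0 higher. The epithelial-mesenchymal list had 5 of 27 lower, CD44, DST, MPZL1, PLOD2 and TPM1, and 3 higher, MAP3K7, PLEKHA1 and SLC37A2. Kinases had 2 of 25 lower and 1 higher, chromatin enzymes 2 of 20 lower (HDAC8 and JADE2) and 1 higher (SIRT2), and apoptosis genes 3 of 18 lower and 1 higher. None of these passed, nor did any member of the cell cycle, lipid, interferon, mitochondrial, DNA damage, marker, TIP60 complex, RNA decay or splicing regulator lists. The splicing regulators had 0 of 28 genes lower and 0 higher at an unadjusted p under 0.05, with a median log2 difference of −0.188.

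Event reads of the exons that fell in inclusion did not pass the threshold in the same libraries. The AKT2 event had 118.4 and 341.2 RPM with siTIP60, against 100.3 and 262.4 RPM with siControl, a log2 difference of 0.31 (limma adjusted p = 0.801). SBF1 had 68.1 and 22.04 RPM with siTIP60, against 66.0 and 22.6 RPM with siControl. HDAC7 had 39.3 and 8.01 RPM with siTIP60, against 45.4 and 21.3 RPM with siControl, a log2 difference of −0.78 (limma adjusted p = 0.674). ARHGAP17 had 18.3 and 16.0 RPM with siTIP60, against 26.2 and 16.6 RPM with siControl. The SBF1 event differed little in either pair. ARHGAP17 and HDAC7 had fewer reads with siTIP60 in both pairs, ARHGAP17 mostly in the first pair and HDAC7 mostly in the second. Event reads include reads of the cassette exon itself, so they are not independent of its inclusion.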

How the data were processed

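Polyadenylated RNA of MCF10A cells was sequenced with a stranded kit, per the labels' protocols, and reads were aligned with STAR to hg38, per the submitters' processing notes, with no version given. The deposited inclusion value is a fraction, the MISO posterior mean per the file headers, rounded to 2 decimals and given with interval bounds taken as 95%. The deposited tables also give raw counts of reads that fit 1 form, the other, both or neither. Events were placed on genes with GENCODE release 29.

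Inclusion was fitted with limma 3.58.1 in R 4.3.3 on 6 groups and the replicate number, on the values of all 12 libraries, using robust empirical Bayes with the variance trended on mean log2 isoform-specific reads. In the other lines a level on fewer than 10 such reads was missing. P-values are two-sided and adjusted by the Benjamini-Hochberg method with a threshold of 0.05. Event reads were fitted as log2(RPM + 0.5) in the same design, which understates differences of low events. The replicate block follows from the pairing rule. The replicate difference of the siTIP60 and siControl groups of WT-TIP60 cells correlated at 0.779 over 2695 events, and at 0.706 to 0.779 over the 15 pairs of groups. The scripts were tested on simulated data, where inclusion reads varied by counting error alone and large differences were set at well-covered events. That setting is easier than these data, so it does not measure how well the fits find differences here. The depth limits precision: the median interval of a level was 0.26 to 0.39 wide in the WT-TIP60 libraries.

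Exons were named by the calls, filled to 12 a direction by smallest p among exons whose siRNA groups did not overlap, plus the 2 list members of smallest p, 6 events a direction by reads, and 5 events for each difference between lines. Sequences are those of the 6 named exons with the largest differences. The members and lists were chosen with earlier results of these data known. Alternatives changed the block, the libraries, the read minimum, the scale, the estimate, the model, the pseudocount, the scaling, the separation and the contigs. Some exons that this rule named or that lists hold are not reported singly and remain in the counts.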

Additional observations from a re-analysis of the deposited data

How the results depend on the processing

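The limma calls in WT-TIP60 cells depended on the replicate block and on the shared spread. In place of 4 exons past the threshold, 0 passed without the replicate block, 0 with the 4 WT-TIP60 libraries alone, 2 with at least 20 isoform-specific reads, 17 on log2 odds (13 lower, 4 higher), 0 with the share of isoform-specific reads and 0 in a quasi-binomial model of the reads over the 1865 events with enough reads of both forms. With 1 library or 1 replicate pair left out, 0 to 0 passed. Where a fit leaves an arm with 1 library, that library is assumed to vary like the other groups. The log2 odds fit kept ARHGAP17, SBF1 and HDAC7 but not AKT2. Among its other calls were MYL6, ABCB8, PPA2, PAK4, ADD3, CPNE1, HNRNPA2B1 and DST. No direction of the 4 exons turned: ARHGAP17 and SBF1 each passed in 4 of 14 alternatives, HDAC7 in 3 of 13 and AKT2 in 1 of 14. The alternative in which AKT2 passed was the fit of primary chromosomes alone. Differences between WT-TIP60 and empty-vector cells numbered 0 to 10 with 1 library left out, 10 without empty-vector siControl replicate 1, and those between WT-TIP60 and KD-TIP60 cells 0 in each alternative. Of 1 event called by reads, 0 passed without the replicate block and 0 with any 1 WT-TIP60 library left out, while 918 passed (588 lower) with the 4 WT-TIP60 libraries alone, where 1 residual degree of freedom per event was pooled over all events. CCNG1 passed in 7 of 12 alternatives. Exons separated in both pairs numbered 198 at 0.1, 469 at 0.05 and 44 at 0.2. Primary chromosomes alone, added after seeing the data, gave 4 exons and 1 event by reads.

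Of the single exons, some not past the threshold changed sign: MORF4L2 to −0.0194 with the share of reads and −0.549 in log2 odds in the quasi-binomial model, FN1 to 0.092 without siTIP60 replicate 1 and 0.05 without replicate 1 (range with libraries left out −0.152 to 0.092), EXOSC1 to 0.001 without siTIP60 replicate 2 and 0.02 without replicate 2 (−0.18 to 0.02), and ORMDL1 to −0.008 and −0.01 in the same 2 settings (−0.01 to 0.07). The cause was not tested.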

Other observations

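Further exons had deposited intervals that did not overlap in either pair of WT-TIP60 cells and were lower with siTIP60. YBX3, a cold-shock RNA-binding protein, had 0.45 and 0.64 with siTIP60, against 0.64 and 0.80 with siControl. AXIN1, a scaffold of beta-catenin degradation, had 0.09 and 0.25 with siTIP60, against 0.25 and 0.46 with siControl. OS9, a lectin of endoplasmic reticulum quality control, had 0.46 and 0.35 with siTIP60, against 0.76 and 0.57 with siControl. MON1A, a guanine exchange factor subunit for RAB7, had 0.55 and 0.52 with siTIP60, against 0.83 and 0.81 with siControl. GUK1, the guanylate kinase, had 0.87 and 0.86 with siTIP60, against 0.96 and 0.97 with siControl. MAZ, a zinc finger transcription factor, had 0.33 and 0.23 with siTIP60, against 0.42 and 0.32 with siControl. None of the 6 passed the limma threshold, with adjusted p-values from 0.138 for YBX3 to 0.46 for GUK1, and each was lower in the other lines too.

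VCAN, the proteoglycan versican, had 0.24 and 0.10 with siTIP60, against 0.03 and 0.01 with siControl, at an exon of 2961 nt (11 libraries in the fit, limma adjusted p = 0.776). KDM4B and CASP1 pointed in opposite directions in WT-TIP60 cells and in the other lines. KDM4B differed by 0.255 in WT-TIP60 cells, −0.09 in empty-vector cells and −0.109 in KD-TIP60 cells, and CASP1 by −0.125 in WT-TIP60 cells, 0.095 in empty-vector cells and 0.075 in KD-TIP60 cells. Both were picked after their values were seen, and no difference between lines passed the limma threshold. The KDM4B fit did not hold all KD-TIP60 libraries, and its difference from that line was not tested.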
